A study of Mus musculus with 5 samples.

Results

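Columnar cells of mouse colon tumors are described here at day 1 and day 6 of a chemotherapy series. A barcode was taken as columnar when its UMIs (unique molecular identifiers, 1 for each captured RNA molecule) of Krt8, Krt18 and Lgals4 summed to at least 5 and exceeded those of Krt5 and Krt14, and when Ptprc, Tyrobp, Csf3r, Pecam1, Cdh5 and Dcn together had fewer than 3. Krt8 and Krt18 are the keratins of simple epithelium, Lgals4 is a galectin of the gut lining, and the other genes mark squamous, immune, endothelial and fibroblast cells. None of them tells tumor cells from normal columnar cells, so normal epithelium taken with the tumors could be among the columnar cells. The share of each in a library was not tested, and a change here can be one of cell mix. Of 5229 barcodes with at least 500 genes and at most 15% mitochondrial UMIs in the 2 libraries compared, 3141 were columnar, and the whole series held 8559 barcodes in 5 libraries. In day 1 replicate 2 the rule took 1446 of 2403 kept barcodes (60.2%), and in day 6 it took 1695 of 2826, a like share.

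The colon is lined by columnar epithelium that stem cells at the base of each crypt renew. WNT ligands keep these stem cells dividing through β-catenin and TCF factors, whose targets include Lgr5, Axin2 and several secreted or membrane inhibitors of the pathway itself. As cells move up the crypt they lose this program and gain transporters, brush border proteins and surface keratins such as Krt20. Colon tumors usually hold the WNT program on. Epithelial cells can also present peptides to T cells, on MHC class I in all cells and on MHC class II after exposure to interferon gamma, through IRF1 and the class II activator CIITA.

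All 4 tumor libraries came from mice of WT genotype with AOM/DSS tumors (the carcinogen azoxymethane followed by dextran sodium sulfate, which inflames the colon), given 5FU+Irinotecan (fluorouracil, which starves cells of thymidine, and an inhibitor of topoisomerase I) and taken through the normal dissociation. No library of untreated tumors was used here, so day 1 was itself a treated time point, and from which event the days count was given in different ways in the study's text. The libraries were made by inDrop, in which single cells are captured in droplets: day 1 replicate 2 and day 6 with the dual index TruDrop structure on a NovaSeq6000, and day 1 replicate 1 and day 3 with the single index structure on a BGI MGI-Seq. The labels did not give the number, age or strain of the mice behind a library, and the study's methods name C57BL/6J and a mixed background for its mice as a whole, as young animals at the start. The comparison therefore had 1 library a side, no replicate check and no test: fold changes describe 2 libraries, and intervals cover counting error only.

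Columnar cells held 12197092 UMIs in day 1 replicate 2 (median 4792.5 a cell) and 9870225 in day 6 (median 2154). The share of mitochondrial UMIs had a median of 2.99% in day 1 replicate 2 and 0.823% in day 6. The columnar cells of the single index libraries, set beside the comparison, numbered 497 in day 1 replicate 1 (3698418 UMIs) and 1042 in day 3 (5073410 UMIs). The 2 dual index libraries shared 42 barcodes, 15 of them columnar. At the threshold of the rule, 41 cells of day 1 replicate 2 and 25 of day 6 stood at exactly 5 marker UMIs, and 32 and 17 cells stood just outside it at 4. Doublets were not called.

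The values that chose the cells are given as a description. Krt8 was at 4050 CPM (UMIs of the gene per 1000000 UMIs of the summed cells) in day 1 replicate 2 and at 5824 in day 6, Lgals4 at 2520 and 4438, and Krt18 at 661 and 213. Markers of columnar epithelium that the rule did not use were present in both libraries. The keratin Krt19 was at 1948 and 2274 CPM, the cadherin Cdh1 at 882 and 794, the claudin Cldn7 at 808 and 1763, and villin, Vil1, at 223 and 339.

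The libraries also differed in sex-linked RNA. Uty, from the Y chromosome, was at 74.4, 105, 2.96 and 0.30 CPM, Ddx3y at 61.1, 75.5, 1.38 and 0.30 CPM, and Eif2s3y at 90.6, 94.1, 0 and 0.10 CPM in columnar cells of replicate 1 of day 1, replicate 2 of day 1, day 3 and day 6, the order in which 4 values are given throughout. Xist, from the inactive X, was at 0, 0.08, 25.6 and 76.1 CPM. Both day 1 libraries thus held RNA of the male type and both later ones RNA of the female type. The day of treatment and the sex of the mice cannot be told apart in any comparison given here.

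Changes were computed genome-wide as log2 of the ratio of CPM in day 6 to CPM in day 1 replicate 2, after adding 10 CPM to each, so that low genes could not give large ratios. Of 21947 genes measured, 8152 had at least 20 CPM in 1 of the 2 sums. A gene under 20 CPM in 1 sum passed this filter through the other sum alone and could only be called higher there. By 2-fold or more on this scale, 425 genes (5.21%) were higher and 1052 (12.9%) were lower in day 6, together 18.1%. The median gene stood at −0.27, so that a list is read against that value and not against 0. Higher genes made up 28.8% of those called, and 51.5% after all changes were centred on the median gene. Between the 2 libraries of day 1, 290 genes (3.56%) differed by 2-fold, 160 (1.96%) being higher and 130 (1.59%) lower in replicate 2, although these libraries also differed in index structure and sequencer.

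**Figure D1:**
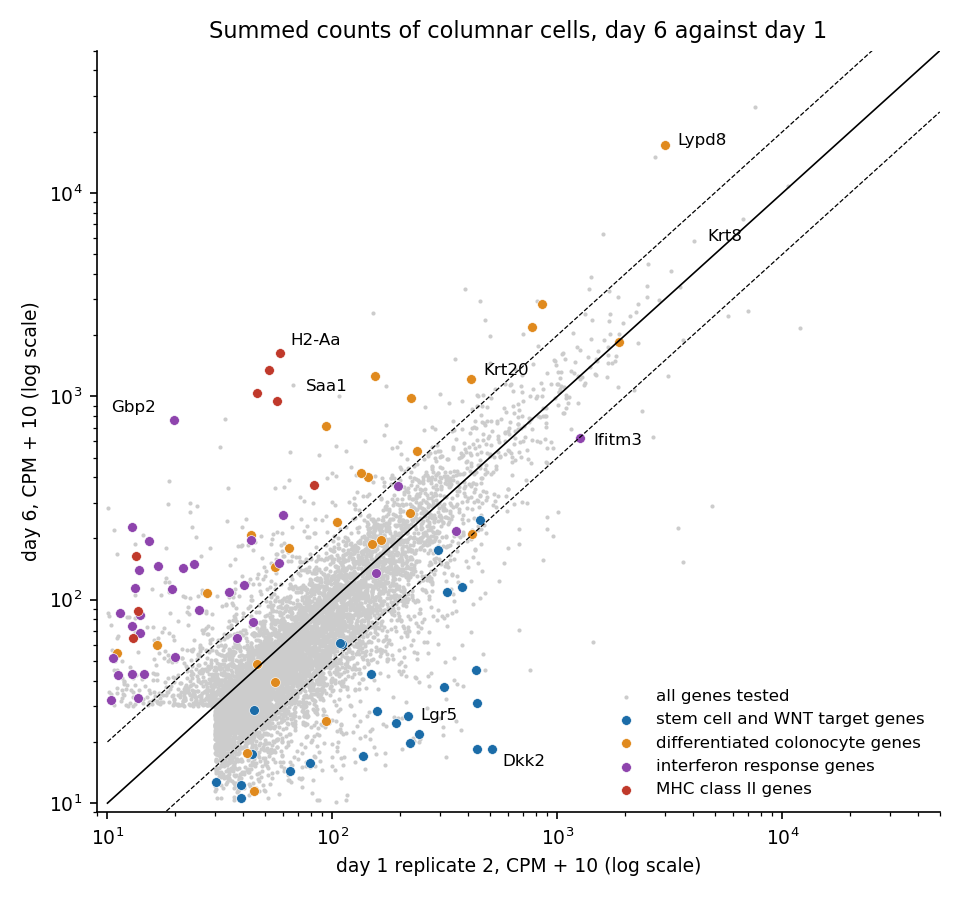
Level of each of 8152 genes in columnar cells of day 1 replicate 2 (x axis) and day 6 (y axis), both as CPM plus 10 on log axes, with lines at equality and at 2-fold. Of 25 stem cell and WNT genes 20 lie beyond the lower line, and 8 of 8 MHC class II genes and 26 of 32 interferon genes lie beyond the upper one, while most genes lie between the lines.

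The single index libraries give a comparison with other cells and another late day. Of the 425 higher genes, 303 (71.3%) were also above 0 from day 1 replicate 1 to day 3, where 37.3% of all tested genes were, and 68 were so by 2-fold. Of the 1052 lower genes, 963 (91.5%) were below 0 there, where 62.7% of all genes were, and 353 were so by 2-fold. Both shares were above those of all genes. How many of all genes were higher in both day 1 libraries than in both later ones, or the reverse, was not counted. Genes given below with such an order were mostly picked for their change, so the order is a description. In the single index pair 243 genes (2.98%) were higher and 630 (7.73%) lower by 2-fold (10.7% in either direction).

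Free RNA in a droplet gives every barcode some UMIs of genes its cell does not express, so the same change was computed in other cells of the same 2 libraries. Non-epithelial cells by a broad rule, with at least 5 UMIs of the 6 immune, endothelial and fibroblast genes, numbered 582 and 239, and squamous cells by the mirrored rule (Krt5 and Krt14 in the place of Krt8, Krt18 and Lgals4) numbered 177 and 675. Of the same 8152 genes, 248 (3.04%) were higher and 540 (6.62%) lower by 2-fold in the broad non-epithelial cells, and 326 (4%) and 328 (4.02%) in squamous cells (9.67% and 8.02% in either direction). The change in columnar cells was further in its direction than that in broad non-epithelial cells for 379 of the 425 higher genes and 959 of the 1052 lower genes. These genes were picked for their change in columnar cells, so a smaller change in another class was likely from the start. The broad rule also set no limit on Krt8, Krt18 and Lgals4. Over columnar markers outside the rule its cells had a median of 47.3% (day 1 replicate 2) and 29.7% (day 6) of columnar levels. A stricter rule for non-epithelial cells left 96 and 30 cells and called 935 genes (11.5%) higher and 1752 (21.5%) lower (33% in either direction), and its day 6 sum held 64178 UMIs in all.

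WNT pathway inhibitors and crypt stem cell genes were lower in day 6. Of 29 listed stem cell and WNT target genes 25 passed the filter on low values, and of these 20 were lower by 2-fold and 0 were higher (12.9% and 5.21% of all genes), and the list's median was −2.17 on the log2 scale. Summed over the list, the level was 5242 CPM in day 1 replicate 2 and 991 CPM in day 6, with 5534 in day 1 replicate 1 and 2594 in day 3. The order of the libraries was thus the same for this sum as the order of days.

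Dkk2, a secreted WNT antagonist of the Dickkopf family, was at 397 CPM in day 1 replicate 1, 499.7 in day 1 replicate 2, 78.4 in day 3 and 8.41 in day 6, a log2 change of −4.79. Wif1, which binds WNT ligands outside the cell, was at 768, 429.9, 82.4 and 8.51 CPM in the same order (−4.57). Notum, which removes the lipid that WNT ligands need, was at 297, 211, 95.6 and 9.83 CPM (−3.48). Each of these inhibitors was higher in both day 1 libraries than in day 3, and in day 3 than in day 6, an order not counted over all genes. Nkd1, an inhibitor that acts on Dishevelled inside the cell, was at 319, 233, 43.4 and 11.9 CPM (−3.47). Axin2, part of the complex that destroys β-catenin, was at 187, 182, 71.2 and 14.9 CPM (−2.95). The ubiquitin ligases Rnf43 and Znrf3, which remove WNT receptors from the surface, fell by 3.27 and 3.07 on the log2 scale, from 424 to 35.1 CPM and from 302 to 27.1 CPM.

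Among stem cell genes, Lgr5, the receptor for R-spondins, was at 325 CPM in day 1 replicate 1, 206 in day 1 replicate 2, 101 in day 3 and 16.9 in day 6 (log2 change −3.0). Smoc2, a matrix protein of the crypt base, was at 289, 148, 92 and 18.4 CPM (−2.48). Both had no overlap between day 1 and the later days, a separation not counted over all genes. Ascl2, a transcription factor of crypt stem cells, was at 42.2, 33.7, 63.7 and 7.40 CPM, so that day 3 was above both day 1 libraries while day 6 was below them. Sox9 was at 311 and 99.7 CPM in the dual index libraries (−1.55) and Cd44 at 366 and 106 (−1.70). The members that did not reach 2-fold were Slc12a2, Ephb3, Myc, Ephb2 and Lrig1, at −0.87, −0.87, −0.82, −0.73 and −0.65.

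Prox1, a homeobox factor and WNT target, was at 542, 428, 77.3 and 21.2 CPM (log2 change −3.81). Tbx3, a T-box factor, was at 153, 160.4, 27.2 and 5.47 CPM (−3.46), and Dach1, a transcriptional repressor, at 253, 300.2, 20.7 and 13.8 CPM (−3.71). These 3 factors, named for the size of their change, were each higher in both day 1 libraries than in both later ones. That order was not counted over all genes. The long non-coding RNA Pvt1, the neighbour of Myc, was at 120.3, 221, 39.0 and 10.2 CPM (−3.51), while Myc itself was at 97.6 and 51.0 CPM in the dual index pair.

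The same list was lower in the other cells, by less. Its median was −1.19 in broad non-epithelial cells, −0.68 in squamous cells and −1.20 in columnar cells of the single index pair. Dkk2 in broad non-epithelial cells was at 137 CPM in day 1 replicate 2 and at 16.3 in day 6, below the columnar level in the first and above it in the second. What part free RNA had in the levels of either cell class was not tested.

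**Figure D2:**
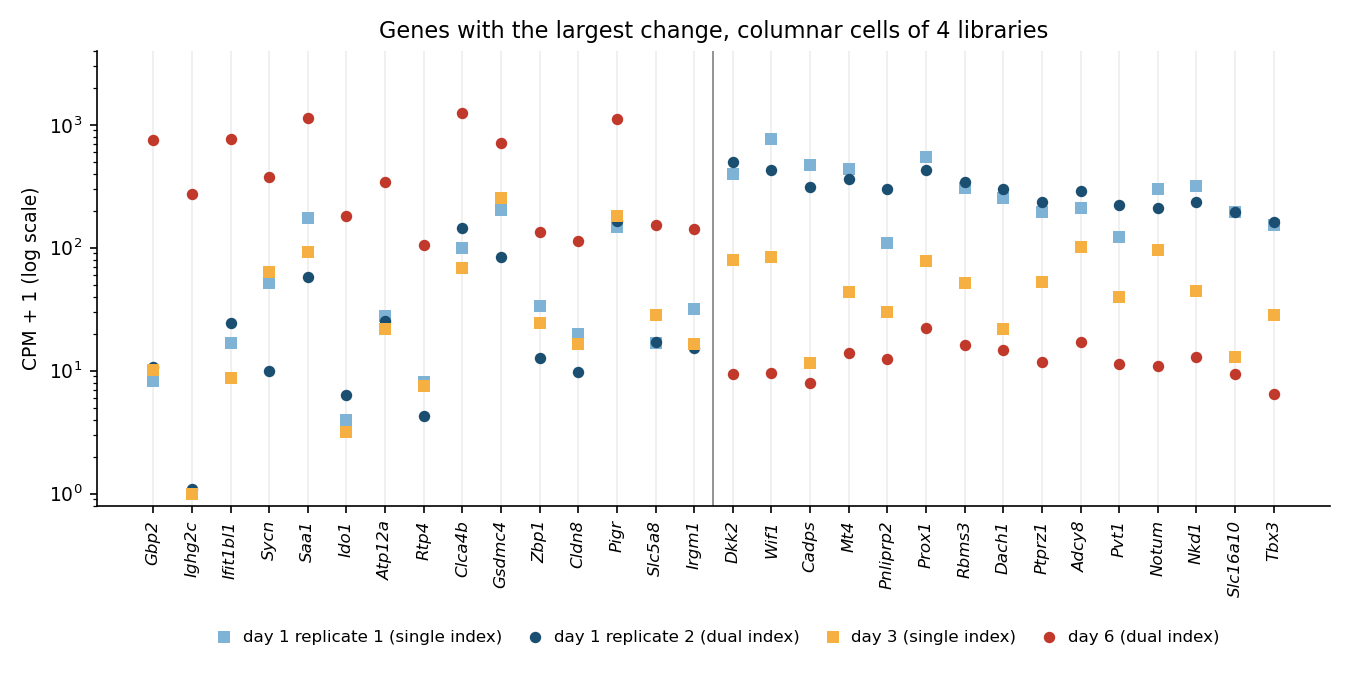
Levels of the 30 genes named by rule, as CPM plus 1 on a log axis, in columnar cells of the 4 tumor libraries (1 point a library). The lower genes are high in both day 1 libraries, between the others in day 3 and lowest in day 6, whereas for most higher genes day 6 alone stands above the other 3 libraries.

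To compare single cells at equal depth, each cell was thinned to 1000 UMIs, which left out 124 columnar cells of day 6 and none of day 1 replicate 2. A thinned columnar cell held a median of 4 UMIs of the stem cell and WNT list in day 1 replicate 2 (10th to 90th percentile 1 to 11) and of 1 in day 6 (0 to 2). At least 1 such UMI was found in 91.9% of cells in day 1 replicate 2 and in 53.2% in day 6 (95% exact binomial interval 50.7 to 55.6). For comparison, cells chosen by the fibroblast genes Dcn, Col1a2 and Col3a1, with at least 5 UMIs and without any UMI of 6 immune and endothelial genes, held at least 1 in 85.7% of 28 cells and 66.1% of 62. This fibroblast rule set no limit on epithelial genes. Without thinning the shares were 99.2% and 77.3% in columnar cells and 100% and 92.4% in fibroblast-rule cells. The list holds Cd44, which stromal and immune cells also express, and the day 6 share in columnar cells was below that in fibroblast-rule cells. In day 6 those cells held Lgr5 at 90.3 CPM (24 UMIs), Wif1 at 48.9 (13 UMIs) and Axin2 at 7.52 (2 UMIs). The columnar levels were 16.9, 8.51 and 14.9 CPM. Fibroblast-rule cells are therefore no measure of cells without this program. For Lgr5 alone, the share of thinned columnar cells with a UMI was 13.3% and 0.891%, and 10.7% and 9.68% among cells of the fibroblast rule (36.2% and 2.77%, and 21.4% and 21.2%, without thinning).

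Genes of differentiated colonocytes were higher in day 6. Of 38 listed genes in the files 27 passed the filter, and 17 of them were higher by 2-fold and 3 lower (5.21% and 12.9% of all genes), with a median of 1.47. The summed level was 8989, 9221, 13928 and 31316 CPM in the 4 libraries, replicates 1 and 2 of day 1 first. Lypd8, a secreted surface protein that keeps bacteria from the epithelium, made up more than any other member of that sum, at 2770, 3005, 4252 and 17101 CPM (2.50). Krt20, the keratin of surface colonocytes, was at 278, 401, 493 and 1202 CPM (1.56). The carbonic anhydrase Car1 was at 291, 214, 182 and 967 CPM (2.12), so that day 3 did not stand above day 1 for it.

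Clca4b, a member of the chloride channel accessory family, was at 98.7, 144, 67.4 and 1247 CPM (log2 change 3.02). Gsdmc4, a gasdermin, was at 202, 83.8, 253 and 705 CPM (2.93), with day 1 replicate 2 below replicate 1 by −1.18 on the same scale. Slc5a8, a transporter of short-chain fatty acids, was at 16.0, 16.0, 27.6 and 153 CPM (2.65). Pigr, the receptor that carries IgA across the epithelium, was at 147, 162, 181 and 1114 CPM (2.70). For these 4 genes day 6 stood above the other 3 libraries. Among those 3, day 3 was the highest for Gsdmc4, Slc5a8 and Pigr and the lowest for Clca4b. Slc5a8 and Pigr come from the lists of transport and of mucosal defence and not from the colonocyte list. Members of the colonocyte list that were lower by 2-fold include Slc9a3, a sodium and proton exchanger of the brush border (34.6 and 1.52 CPM, −1.95), and 2210407C18Rik (31.6 and 7.6 CPM, −1.24). Ceacam1 and Guca2a, 2 further colonocyte genes, were at −0.03 and 0.27.

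The median of this list was 0.65 in broad non-epithelial cells, 0.64 in squamous cells and 0.31 in the single index pair. Thinned columnar cells held a median of 5 UMIs per 1000 of the list in day 1 replicate 2 and 24 in day 6, and cells of the fibroblast rule 3.5 and 7. Lypd8 in those fibroblast-rule cells was at 5838 CPM in day 6, 34.1% of its columnar level, and Krt20 at 369 CPM, 30.7%. These percentages describe cells of that rule. Since it set no limit on epithelial genes and doublets were not called, some of its droplets could also hold an epithelial cell.

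Of 16 tested transcription factors of the intestine, 4 were higher and 2 lower by 2-fold (5.21% and 12.9% of all genes), with a median of 0.10. The lower count was near the share of all genes. Klf4, a factor of differentiated surface and goblet cells, was at 212, 289.8, 176 and 1017 CPM (1.78). Cdx1 was at 114 and 285 CPM in the dual index pair (1.25) and its relative Cdx2 at 49.6 and 16.0 CPM (−1.20). Hnf4a, at 221 and 272 CPM, was at 0.29.

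**Figure D3:**
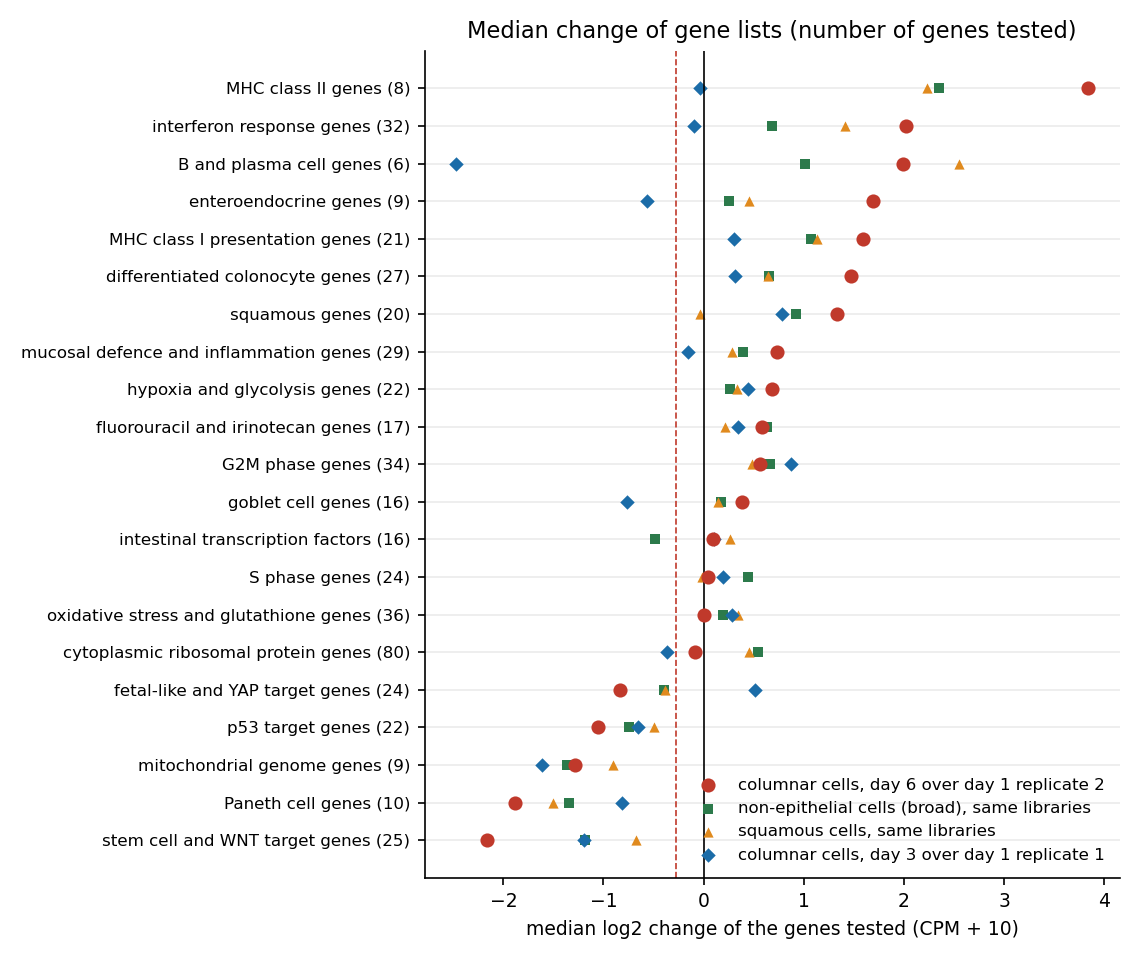
Median log2 change of 21 gene lists in columnar cells from day 1 replicate 2 to day 6, in broad non-epithelial and squamous cells of the same libraries, and in columnar cells of the single index pair; the dashed line is the median of all genes in columnar cells. MHC class II stands at 3.84 in columnar cells and at −0.04 in the single index pair, while stem cell and WNT genes are below the dashed line in every comparison.

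MHC class II genes were higher in day 6. Of 10 listed genes in the files 8 passed the filter, and 8 of these 8 were higher by 2-fold (5.21% of all genes), with a median of 3.84. H2-Aa, an alpha chain, was at 104 CPM in day 1 replicate 1, 48.5 in day 1 replicate 2, 90.3 in day 3 and 1621 in day 6 (log2 change 4.80). Its partner H2-Ab1 was at 87.6, 42.5, 99.7 and 1339 CPM (4.68). Cd74, the invariant chain that occupies the groove until peptides are loaded, was at 223, 36.4, 187 and 1032 CPM (4.49). Day 6 stood above the other 3 libraries for each, and day 3 did not stand above day 1 replicate 1 for H2-Aa and Cd74. The median of the list from day 1 replicate 1 to day 3 was −0.04.

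The other members include the loading proteins and the activator. H2-DMb1, part of the exchange factor for peptides, was at 3.44 and 154 CPM in the dual index pair (3.61), and the protease Ctss, which trims the invariant chain, at 72.5 and 355 (2.15). Ciita, which switches on the class II promoters, was at 2.95 CPM (36 UMIs) in day 1 replicate 2 and at 54.5 CPM (538 UMIs) in day 6, a change of 2.32. In day 6 the activator was below each of its targets named here. H2-DMb1 and Ciita passed the filter on low values through day 6 alone, so they could not be counted as lower.

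Immune cells hold far more class II RNA, so the level in other droplets matters here. In day 1 replicate 2, columnar cells had 4.40% of the strict non-epithelial level over the 4 most abundant class II genes (median), and in day 6 they had 28.4%. Over 9 immune genes outside the rule the same median was 1.05% and 1.37%, with 11.5% for Fcer1g as the highest in day 6. The class II median was above that of these 9 immune genes in both libraries. They include the neutrophil markers S100a8, S100a9, Il1b, Cxcr2 and Retnlg, and none of the markers used here for B and plasma cells. They therefore do not follow free RNA of those cells, and the comparison does not show where the class II RNA came from. The strict non-epithelial class also admits endothelial and fibroblast cells, and it numbered 96 and 30 cells. In cells of the fibroblast rule, which are also not expected to hold much class II RNA, H2-Aa was at 62.6 CPM in day 1 replicate 2 and at 602 CPM in day 6, which was 129% and 37.1% of the columnar level. Cd74 in those cells was at 28.1% of the columnar level in day 6, near the 34.1% of Lypd8.

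After thinning to 1000 UMIs, 19.1% of columnar cells had at least 1 class II UMI in day 1 replicate 2 (interval 17.1 to 21.2) and 97.6% in day 6 (96.7 to 98.3), with 42.5% in day 1 replicate 1 and 34.2% in day 3. Cells of the fibroblast rule had 21.4% (8.30 to 41) and 90.3% (80.1 to 96.4). The share in columnar cells of day 1 replicate 2 thus lay within the wide interval of the fibroblast-rule cells, which numbered 28 in that library. In day 6 the median count was 5 UMIs per 1000 in columnar cells and 2 in fibroblast-rule cells. Without thinning the shares were 58.6% and 99.6% in columnar and 50.0% and 100% in fibroblast-rule cells, which were deeper in day 6 (median 3462.5 UMIs) than columnar cells. The fibroblast-rule level in day 6 was a median of 40.7% of the columnar level over class II genes (28.1 to 46.6%) and 33.6% over columnar genes (24.8 to 38.1%). The part of free RNA in the class II level of columnar cells was not tested.

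**Figure D4:**
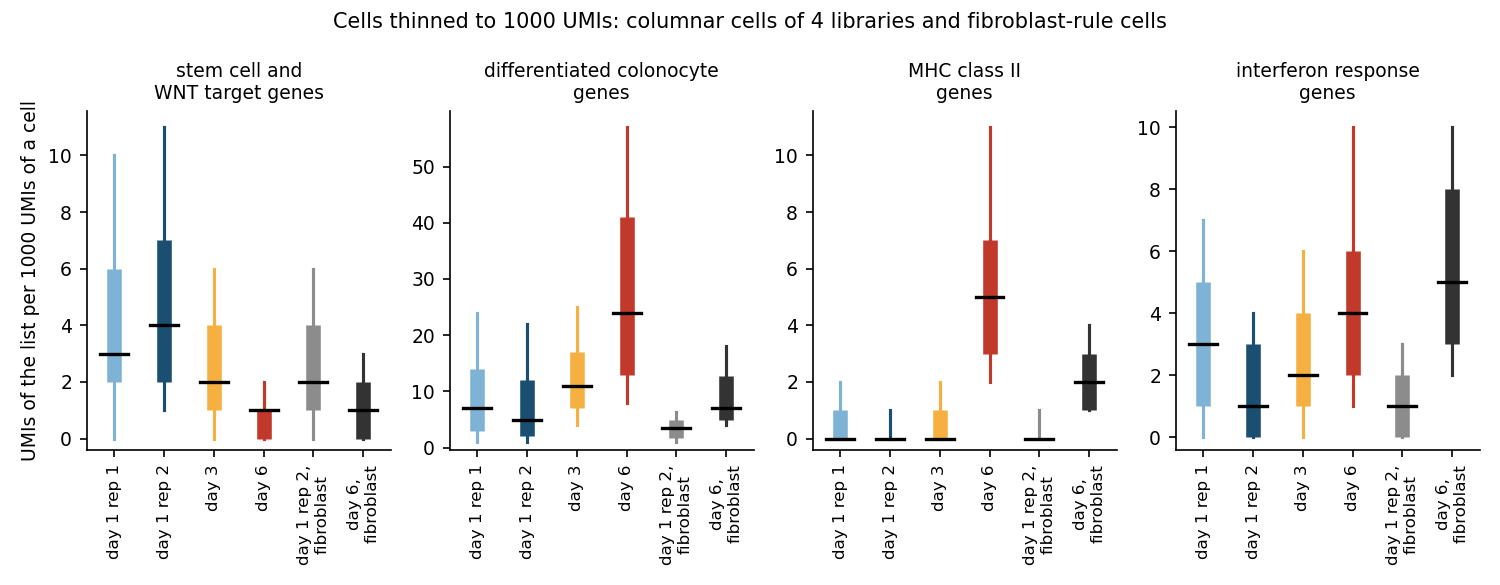
UMIs per thinned cell of 1000 UMIs for 4 lists, in columnar cells of the 4 tumor libraries and in cells of the fibroblast rule in the dual index pair (black bar, median; thick line, 25th to 75th percentile; thin line, 10th to 90th). The stem cell and WNT list falls to a median of 1 in columnar cells of day 6, and the class II list rises from 0 to 5.

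MHC class I presentation followed in the dual index pair. Of 22 listed genes 21 passed the filter, 15 of them higher by 2-fold and 0 lower (5.21% and 12.9% of all genes), with a median of 1.59. B2m, the light chain of every class I molecule, was at 393, 142, 343 and 2559 CPM over the 4 libraries in order of day (log2 change 4.08). The heavy chains H2-K1 and H2-D1 were at 378 and 3373 CPM (3.12) and at 444 and 2925 CPM (2.69) in the dual index pair, and at 688 and 1346 and at 543 and 1157 CPM from day 1 replicate 1 to day 3. Both heavy chains were higher on the later day in each index type. B2m was not: its single index change was −0.19, and day 1 replicate 2 stood at −1.41 against replicate 1.

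The peptide machinery of class I had the same direction. The immunoproteasome subunits Psmb8 and Psmb9 were at 13.4 and 261 CPM (3.54) and at 8.20 and 169 CPM (3.30). The peptide transporter Tap1 was at 14.7 and 194 CPM (3.05), and Nlrc5, the class I activator, at 2.95 and 31.1 CPM (1.67). General chaperones of the same pathway were among the members under 2-fold, with Calr at 0.62, Canx at −0.30 and Pdia3 at −0.39. The list's median was 1.07 in broad non-epithelial cells, 1.13 in squamous cells and 0.31 in the single index pair. In fibroblast-rule cells of day 6 B2m was at 2614 CPM, 102% of the columnar level, so that its high level in day 6 was not particular to columnar cells.

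Interferon response genes were higher in 26 members and lower in 1 of 32 that passed the filter (40 listed, against 5.21% and 12.9% of all genes), with a median of 2.02. Members under 20 CPM in day 1 replicate 2, among them Gbp2, Rtp4, Zbp1 and Irgm1, passed through day 6 alone and could not be counted as lower. Gbp2, a guanylate-binding protein that attacks the vacuoles of intracellular microbes, was at 7.30, 9.67, 9.07 and 755 CPM (log2 change 5.28, 118 UMIs against 7452). Its 95% Poisson intervals were 8.01 to 11.6 CPM in day 1 replicate 2 and 738 to 772 in day 6. Gbp2 thus stood at a like low level in 3 libraries and far above it in day 6. Ido1, which degrades tryptophan, was at 2.97, 5.33, 2.17 and 179 CPM (3.63). Cd274, which encodes the checkpoint ligand PD-L1, was at 1.35, 6.72, 1.58 and 136 CPM (3.12). Zbp1, a sensor of nucleic acids that can start cell death, was at 32.4, 11.6, 23.5 and 133 CPM (2.72).

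The immunity-related GTPases Iigp1, Igtp and Irgm1 were at 2.79 and 217, 5.25 and 185, and 14.3 and 140.1 CPM in the dual index pair, changes of 4.15, 3.67 and 2.62. Ifit1bl1, of the Ifit family, was at 16, 23.4, 7.69 and 768 CPM (4.54), Rtp4 at 7.03, 3.28, 6.50 and 104 CPM (3.10), and Irf7 at 9.43 and 103 CPM in the dual index pair (2.54). The transcription factor Irf1 was higher by less, at 50.5 and 249.5 CPM (2.10). Ifitm3, a membrane protein that blocks viral entry, was at 1255 and 612 CPM (−1.02), lower in columnar cells while it stood at 0.79 in broad non-epithelial cells and 1.56 in squamous cells.

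Columnar cells had the largest list median here among the cell classes compared. It was 0.69 in broad non-epithelial cells and 1.41 in squamous cells, and −0.10 in the single index pair. In thinned cells, Gbp2 was found in 0.41% of columnar cells in day 1 replicate 2 and 34.6% in day 6, in 5.15% and 27.9% of broad non-epithelial cells, and in 0 of 28 and 17.7% of fibroblast-rule cells. Ifit1bl1 was found in 1.59% and 35.0% of columnar cells, and in 0 of 28 and 6.45% of fibroblast-rule cells. Ido1 was found in 0.21% and 9.48%, and in 0 of 28 and 1.61%. For 0 of 28 cells the exact binomial interval reaches 12.3%. Without thinning, columnar cells had Gbp2 in 2.56% and 59.9%, Ifit1bl1 in 6.09% and 59.9%, and Ido1 in 1.18% and 19.2%. Ido1 and Ifit1bl1 in fibroblast-rule cells of day 6 were at 18.9% and 18.1% of their columnar levels, whereas Iigp1 was at 100% of it.

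The promoters of 4 genes that were higher in day 6 are shown as examples that hold a known interferon element, and they were picked for holding one: the transcription factor Irf1, the presentation gene B2m and the GTPases Gbp2 and Irgm1. The windows run from 250 bases before to 50 bases after the start site and were read from RefSeq on GRCm38.p6, on the gene's strand: chr3:142620413-142620712 (+) for Gbp2, chr11:48871371-48871670 (−) for Irgm1, chr2:122147437-122147736 (+) for B2m and chr11:53769764-53770063 (+) for Irf1. Capitals mark a match, on either strand, to GAAA followed after any 2 bases by GAAA, the core of the interferon-stimulated response element, in Gbp2, Irgm1 and B2m, and to TTCNNNGAA, the interferon gamma element known as GAS, in Irf1.
Gbp2: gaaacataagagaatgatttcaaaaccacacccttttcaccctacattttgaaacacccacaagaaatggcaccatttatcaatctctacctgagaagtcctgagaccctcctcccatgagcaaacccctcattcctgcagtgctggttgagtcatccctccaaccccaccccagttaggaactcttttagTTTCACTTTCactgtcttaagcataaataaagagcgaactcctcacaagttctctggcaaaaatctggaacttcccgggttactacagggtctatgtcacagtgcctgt
Irgm1: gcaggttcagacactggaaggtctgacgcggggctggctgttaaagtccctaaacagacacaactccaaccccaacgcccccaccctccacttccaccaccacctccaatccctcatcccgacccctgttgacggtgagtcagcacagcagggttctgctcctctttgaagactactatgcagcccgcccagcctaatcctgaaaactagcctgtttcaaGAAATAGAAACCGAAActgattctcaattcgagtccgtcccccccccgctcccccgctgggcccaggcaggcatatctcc
B2m: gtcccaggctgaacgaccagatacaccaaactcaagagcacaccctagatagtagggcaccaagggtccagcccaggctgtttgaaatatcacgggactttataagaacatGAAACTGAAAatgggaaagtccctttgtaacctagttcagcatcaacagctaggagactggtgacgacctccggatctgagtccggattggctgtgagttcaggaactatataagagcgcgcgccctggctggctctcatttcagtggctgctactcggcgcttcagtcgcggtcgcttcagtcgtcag
Irf1: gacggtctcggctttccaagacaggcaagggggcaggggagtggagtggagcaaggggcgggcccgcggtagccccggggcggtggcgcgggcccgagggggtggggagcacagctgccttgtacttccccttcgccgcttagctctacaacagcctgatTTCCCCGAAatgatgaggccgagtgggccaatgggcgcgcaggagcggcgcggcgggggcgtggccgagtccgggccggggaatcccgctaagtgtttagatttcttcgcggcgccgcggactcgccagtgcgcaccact
The matches start 59 bases before the start site in Gbp2, 30 before in Irgm1 (2 overlapping matches in 1 run), 139 before in B2m and 90 before in Irf1. Of the other genes looked at in the same way, Igtp and Ifit1bl1 held the GAAA pair and the presentation genes H2-K1, Psmb9 and Tap1 did not, and a second start site of Irf1 had no TTCNNNGAA. Of the promoters of 27025 genes of the same length, 3.99% held the GAAA pair and 9.55% held TTCNNNGAA. Among the MHC class I genes, 18 of 21 (85.7%) had a promoter in the table and 5 of them (27.8%) held the GAAA pair. No share is given for the interferon list (24 of 32 genes, 75%, had a promoter in the table), the higher genes (72.7%) or all tested genes (79.9%), since under 80% of each had one. The element CTTTGA of TCF factors was in none of the windows of Axin2, Nkd1, Wif1 and Dkk2, and 18.2% of all promoters held it. Lef1, looked at in the same way, had several start sites. The window of the last of them held 2 matches, the first 180 bases before the start site, and its other windows held none. A match is a run of letters and not a shown binding site, and no match says only that these letters are not in the window.

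Targets of p53, the factor that DNA damage activates, were lower in 11 members and higher in 1 of 22 that passed the filter, with 30 listed (12.9% and 5.21% of all genes), with a median of −1.06. Cdkn1a, the cell cycle inhibitor p21, was at 1097, 889, 1081 and 462 CPM (log2 change −0.93), so that day 6 was the lowest library while day 3 lay between the day 1 libraries. Eda2r, a death receptor of the TNF family, was at 40.8, 41.9, 6.11 and 0.61 CPM, with 511 UMIs in day 1 replicate 2 and 6 in day 6 (−2.29). Zmat3, an RNA-binding target of p53, was at 151, 136, 83.2 and 18 CPM (−2.38), and Ccng1, cyclin G1, at 143, 220.0, 52.4 and 73 CPM (−1.47). Eda2r, Zmat3 and Ccng1 were thus each higher in both day 1 libraries than in both later ones, an order not counted over all genes. The member that was higher was Pmaip1, which encodes the death factor NOXA, at 17.7 and 57.7 CPM (1.29). The list's median was −0.74 in broad non-epithelial cells, −0.49 in squamous cells and −0.66 in the single index pair.

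Of 17 tested genes that handle the 2 drugs, 6 were higher and 2 lower, with a median of 0.58, where 5.21% of all genes were higher and 12.9% lower, so that the lower count was near the background. Upp1, uridine phosphorylase, which can convert fluorouracil towards its active nucleotides, was at 20.8, 15, 31.3 and 278 CPM (log2 change 3.52), with 0.68 in broad non-epithelial and 0.91 in squamous cells. Thymidylate synthase, Tyms, the enzyme that fluorouracil blocks, was at 34.4 and 58.9 CPM in the dual index pair (0.63). Top1, the topoisomerase that irinotecan traps, was at 228, 273, 95 and 149 CPM (−0.83). Carboxylesterases, which release the active form of irinotecan, were at 5.90 and 63.5 CPM for Ces2c (2.21) and 26.4 and 98.4 CPM for Ces2e (1.57). Abcc2, an efflux pump, was at 62.2, 73.7, 13.8 and 5.17 CPM (−2.46).

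Genes of DNA replication did not differ by 2-fold in either direction in any of 24 tested members (18.1% of all genes did), with a median of 0.04. Of 34 genes of G2 and mitosis, 8 were higher and 1 lower (5.21% and 12.9% of all genes), with a median of 0.56. Top2a, the mitotic topoisomerase, was at 78.7, 98.5, 165 and 214 CPM (log2 change 1.04), Ube2c, which drives exit from mitosis, at 53, 50.9, 162 and 154 CPM (1.43), and Birc5, survivin, at 43.8, 37.0, 177 and 109 CPM (1.34). For these 3 genes both later libraries stood above both day 1 libraries, an order not counted over all genes. Mki67, the usual marker of cycling cells, was at 29.2, 43.2, 39.8 and 56.9 CPM (0.33). The G2 and mitosis list had a median of 0.87 in the single index pair.

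Secretory lineages differed from each other. Of 10 tested Paneth cell genes, 7 were lower and 0 higher (12.9% and 5.21% of all genes), with a median of −1.88. Mmp7, the protease that activates defensins, was at 658, 252, 514 and 19.2 CPM (log2 change −3.16), and Lyz1, lysozyme, at 1174, 661, 669 and 178 CPM (−1.84). Day 6 was the lowest library for both, and day 3 lay between the day 1 libraries. Of 16 goblet cell genes, 4 were higher and 2 lower (5.21% and 12.9% of all genes), the latter near the background, with a median of 0.38. The mucin Muc2 was at 4433, 1493, 2590 and 1473 CPM (−0.02), level in the dual index pair, and Zg16, which binds bacterial cell walls, at 1428, 247, 171 and 878 CPM (1.79), with day 1 replicate 2 at −2.48 against replicate 1.

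Enteroendocrine genes were higher in 6 of 9 tested members (5.21% of all genes) and lower in 0, with a median of 1.69, against −0.57 in the single index pair. The granule protein Chgb was at 281, 117, 57.6 and 401 CPM (log2 change 1.69, and −2.11 in the single index pair), and Chga at 72.2, 29.4, 51.6 and 120.4 CPM (1.73). The hormone Pyy was at 335, 427, 339 and 887 CPM (1.04). Day 6 was the highest library for these 3 genes. In fibroblast-rule cells of day 6 Chgb was at 10.3% and Pyy at 29.3% of the columnar level. Thinned columnar cells had at least 1 UMI of the list in 17.1% and 43.3% of cells, and broad non-epithelial cells in 19.8% and 42.2% (57.3% and 77.3%, and 53.4% and 80.8%, without thinning). In fibroblast-rule cells the thinned shares were 32.1% and 35.5%, so that the columnar share was below both other classes in day 1 replicate 2 and about level with broad non-epithelial cells in day 6. The mean was 0.55 and 1.81 UMIs per thinned columnar cell, and 0.60 and 0.68 per broad non-epithelial cell. The change differed with the depth of cells. Within columnar cells of 10000 UMIs or more the list's median was 0.17, against 1.59 in cells under 3000 UMIs and 3.59 between.

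Defence genes of the mucosa were higher in 11 of 29 tested members and lower in 2 (5.21% and 12.9% of all genes), with a median of 0.73. Saa1, an acute phase protein that the gut makes in contact with bacteria, was at 172, 56.7, 90.9 and 1133 CPM (log2 change 4.10). Nos2, which makes nitric oxide, was at 4.06, 3.20, 4.93 and 177 CPM (3.83). In fibroblast-rule cells of day 6 Nos2 was at 10.6% of its columnar level, Saa1 at 41.8% and Ltf, described below, at 114%. The oxidase Duox2 and its maturation factor Duoxa2 were at 89.9 and 411 CPM (2.07) and 31.3 and 239 CPM (2.59), and rose by 0.98 and 1.16 in the single index pair. Ltf, lactoferrin, was at 16.8, 21.7, 200 and 551 CPM (4.14) in columnar cells, but at 376 and 4559 CPM in squamous cells of the dual index pair. Reg3b, an antibacterial lectin, was the opposite case, at 303 and 71.1 CPM (−1.95).

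Other genes named by the rule for their size of change lie outside these lists or in lists of transport and junction genes. Atp12a, the colonic proton and potassium pump, was at 26.8, 24.4, 20.9 and 344 CPM (log2 change 3.37), and Cldn8, a sealing claudin of the distal colon, at 18.9, 8.69, 15.4 and 112 CPM (2.71). Sycn, syncollin, a granule protein known from the pancreas, was at 50.8, 8.85, 62.1 and 373 CPM (4.35). For Sycn, day 1 replicate 2 stood at −1.69 against replicate 1, so that the other 2 libraries were nearer to day 6. Of the other lower genes named by the rule, Cadps, a factor for dense granule release, was at 473, 309, 10.6 and 6.89 CPM (−4.24), and the metallothionein Mt4 at 438, 363, 42.6 and 13.0 CPM (−4.02). Slc16a10, a transporter of aromatic amino acids, was at 195, 193, 12 and 8.41 CPM (−3.46). Pnliprp2, a lipase, was at 109, 300.2, 29.2 and 11.5 CPM (−3.85).

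Genes of the fetal-like and YAP program, which appears in injured intestine, were lower in 10 of 24 tested members and higher in 2 (12.9% and 5.21% of all genes), with a median of −0.84 against 0.51 in the single index pair. Clu, clusterin, which marks revival stem cells after injury, was at 181, 136, 233 and 12.7 CPM (log2 change −2.69, and 0.34 in the single index pair). Tissue factor, F3, was at 69.5, 227, 90.3 and 44.5 CPM (−2.12). Ly6a, known as Sca-1, was the more abundant of the 2 that were higher, at 1035, 1402, 1360 and 3867 CPM (1.46). Clu and F3 were lowest in day 6, while day 3 was above day 1 replicate 1.

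Squamous genes were present in columnar cells at low levels and were higher in day 6 in 11 of 20 tested members (5.21% of all genes), with a median of 1.33. Krt5 and Krt14, which the rule limits, were at 55.0 and 525 CPM and at 189 and 585 CPM. Krt13, a keratin of stratified epithelium that the rule did not use, was at 330, 96.7, 1071 and 988 CPM (log2 change 3.23). Over 6 squamous genes outside the rule the columnar level was 3.54% of that in squamous cells in day 1 replicate 2 and 6.39% in day 6 (median), with squamous cells at 7.37% and 23.9% of kept barcodes. Fibroblast-rule cells of day 6 held Krt5 at 2227 CPM, above the columnar level. The part of free RNA from squamous cells in these values was not tested.

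RNA of cells that the rule set aside also moved. Immunoglobulin and plasma cell genes were higher in 6 of 6 tested members (5.21% of all genes; median 1.99, and −2.47 in the single index pair), with Igkc at 4825, 2700, 366 and 15081 CPM. In day 6 Igkc stood at 64.3% of the columnar level in fibroblast-rule cells, and Ighg2c had 1 UMI in columnar cells of day 1 replicate 2 and 2683 in day 6 (272 CPM). The 4 globin genes were lower by 2-fold in the dual index pair (12.9% of all genes) and in the single index pair (7.73%), with Hbb-bs at 1838, 3611, 14.6 and 144 CPM. The matrix gene Mgp was at 2378, 1429, 465 and 52.1 CPM in columnar cells. Of 9 tested genes of the mitochondrial genome, 6 were lower by 2-fold (12.9% of all genes), with mt-Nd1 at 11956 and 2158 CPM. The 78 nuclear genes of the respiratory chain had a median of 0.34 and 80 ribosomal protein genes a median of −0.08. The part of these changes in the other results was not tested, and the counts of 2-fold genes without globin, immunoglobulin and mitochondrial UMIs were 419 higher and 1126 lower.

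Gene length moved with the change. The span of a gene, from first to last exon, had a median of 11472 bp among the 425 higher genes, 79847 bp among the 1052 lower genes and 28035 bp among all tested genes (8116 of 8152 had a span). In the shortest of 10 bins the median change was 0.07, with 7.64% of genes lower and 11.5% higher. In the longest it was −0.80, with 37.6% lower and 1.11% higher. The same bin was at −0.50 in broad non-epithelial cells, −0.22 in squamous cells and −0.47 in the single index pair, and at 0.42 between the day 1 libraries. Long genes among the lower ones named by the rule were Rbms3 (1057170 bp, 344 and 15.3 CPM), Cadps (450780 bp) and Dach1 (382920 bp), and short ones Mt4 (1828 bp) and Notum (7406 bp). The part of gene length or of unspliced RNA in these changes was not tested.

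**Figure D5:**
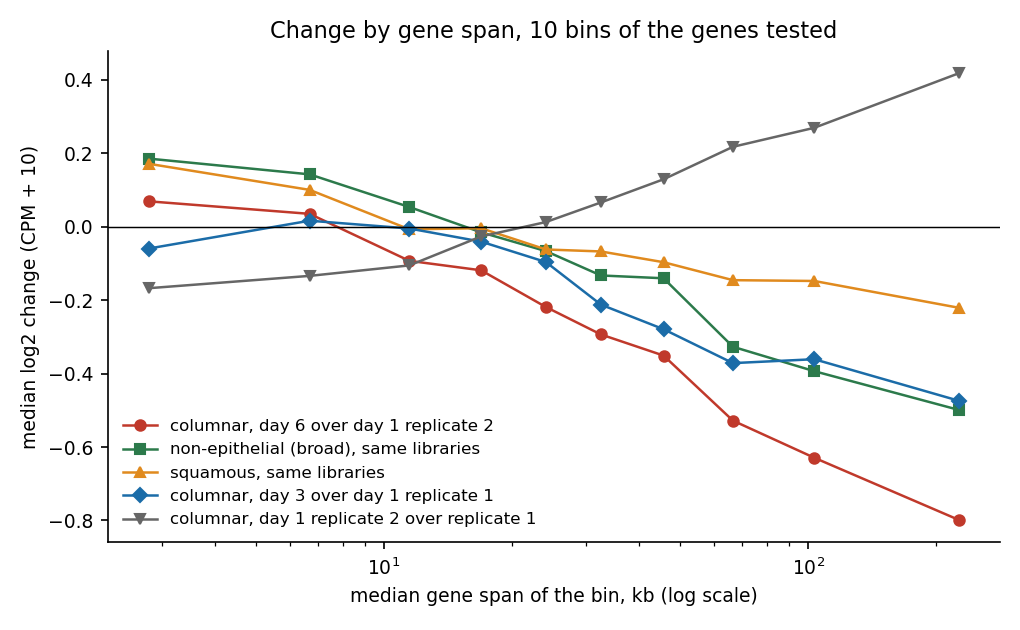
Median log2 change in 10 bins of gene span (x axis, median span of the bin in kb, log axis) for columnar cells, broad non-epithelial cells, squamous cells, the single index pair and the 2 day 1 libraries. The line for columnar cells falls from 0.07 in the shortest bin to −0.80 in the longest, and the line between the day 1 libraries rises to 0.42.

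Cells differed in depth between the libraries, so the change was also computed within 3 ranges of UMIs a cell. In cells under 3000 UMIs (525 and 1030), between 3000 and 10000 (473 and 322) and of 10000 or more (448 and 343), the median of the MHC class II list was 2.91, 3.67 and 4.11, that of the stem cell and WNT list −1.70, −2.27 and −2.05, and that of differentiated colonocytes 0.97, 1.42 and 1.48. The interferon list was at 1.76, 1.74 and 2.09, and the p53 list at −0.93, −0.94 and −1.11. These 5 lists kept their direction in every range of depth.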

How the data were processed

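Single-cell RNA was measured in 5 inDrop libraries, 4 of them from treated tumors. The authors deposited raw UMI counts per barcode and gene, 1 table a library, quantified by dropEst after alignment to GRCm38.85, without normalization. Low-quality barcodes were still in the tables, so the study's limits (500 genes, 15% mitochondrial) were applied here. The members and all gene lists were chosen with earlier results of these data known. Counts were summed over columnar cells of each library, scaled to CPM and compared as log2 with 10 CPM added, over genes with at least 20 CPM in 1 sum. A gene was called at 2-fold, and with 1 library a side no test was run. Named were the 15 genes with the largest change in each direction among those with at least 100 CPM and 2 times the non-epithelial CPM in the higher library and a change further than in non-epithelial cells. Further genes named were list members with the largest change, those the study names, and some chosen after their values were seen. For cell shares, cells were thinned to 1000 UMIs (seed 1). The rule for fibroblast cells and 3 alternatives were chosen after seeing the data. The calling was tested on simulated data. Tools were Python 3.11.15, numpy 2.4.6, scipy 1.17.1, pandas 2.3.3, matplotlib 3.10.9 and, for TMM, R 4.3.3 with edgeR 4.0.16. The library of normal colon stroma was not used beyond its count of barcodes.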

Additional observations from a re-analysis of the deposited data

Results flagged for a closer look

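Enteroendocrine genes had a median log2 change of 1.69 from day 1 replicate 2 to day 6 and of −0.57 from day 1 replicate 1 to day 3. The opposite directions in the dual index and single index libraries drew attention to it, and the difference was not tested.

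Fetal-like and YAP target genes stood out in the same way, with a median of −0.84 in the dual index pair and 0.51 in the single index pair. This difference was not tested either.

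B and plasma cell genes had a median of 1.99 in the dual index pair and −2.47 in the single index pair, again in opposite directions and not tested. Day 6 and day 3 are both late days, and the pairs differ in day, mice, index structure and sequencer, which cannot be told apart.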

How the results depend on the processing

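With 425 genes higher and 1052 lower by 2-fold in the settings reported, a pseudocount of 1 CPM gave 1654 lower, and one of 50 CPM gave 197 higher and 292 lower. A filter of 100 CPM gave 226 and 403, centring on the median gene 653 and 615, and TMM scaling 738 and 591. Among alternatives chosen after seeing the data, cells of 3000 to 10000 UMIs gave 640 and 1897, and centring within bins of gene span gave 435 lower. The broad rule for non-epithelial cells gave 248 higher and 540 lower there, against 935 and 1752 with the strict rule. The causes of these differences were not tested. The remaining counts of 2-fold genes in columnar cells, under 10 marker UMIs, 1000 genes, equal weights, thinning, no filter, day 1 replicate 1 as the early library, and without the 6% of cells with the most UMIs, stayed within 1.5 times. Higher genes made up 28.8% of the called genes, and 55.5% under TMM and 58.9% with centring by span. None of the 30 named genes changed direction in the 15 alternatives, of which Ighg2c had a value in 14. They were picked for the size of their change, so a reversal was unlikely from the start. Sizes did move, with Ighg2c between 1.70 and 7.98 on the log2 scale. The median of goblet cell genes ranged from −0.31 to 0.74 and that of S phase genes from −0.07 to 0.33. No paired analysis was possible because each day had 1 library in the comparison and no test was run. With 1 library a side, differences between mice, batches and days cannot be told apart, and the 64178 UMIs of strict non-epithelial cells in day 6 limit that control.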

Other observations

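Lists of metabolism, stress and transport are read against 5.21% of all tested genes higher and 12.9% lower by 2-fold. Of 22 hypoxia and glycolysis genes that passed the filter 4 were higher and 0 lower, with a median log2 change of 0.68. Hk2, the hexokinase that starts glycolysis in growing cells, was at 121, 159, 179 and 634 CPM in columnar cells of day 1 replicate 1, replicate 2, day 3 and day 6 (1.93), and Car9, a carbonic anhydrase induced by low oxygen, at 51.1, 36.0, 99.7 and 118 CPM (1.48). Hk2 stood at 0.04 in squamous cells. Of 36 oxidative stress and glutathione genes 3 were higher and 2 lower, with a median of 0.00. Prdx6, a peroxiredoxin, was at 463, 341, 800 and 1515 CPM (2.12), and the cystine carrier Slc7a11 at 71.9, 64.8, 35.1 and 16.7 CPM (−1.48).

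Of 23 ion and water transport genes 8 were higher and 3 lower, with a median of 0.28. Those lower include the chloride channel Cftr, at 112 and 45.5 CPM in the dual index pair (−1.14), and the potassium channel Kcnq1, at 332 and 96.4 CPM (−1.68). Both stood near 0 in the single index pair, at 0.06 and 0.10. Of 24 junction genes 2 were higher and 2 lower. Tjp1, the scaffold of tight junctions, was at 105 CPM in day 1 replicate 1, 2648 in day 1 replicate 2, 43.6 in day 3 and 618 in day 6. Both dual index libraries stood above both single index ones, so its level did not follow the day alone. Index structure, sequencer and mice cannot be told apart here. Ier3, an early response gene, was at 231 and 64.4 CPM in the dual index pair (−1.69) and at 0.41 in the single index pair.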
